A study of Mus musculus with 4 samples.

Results

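The interferon regulatory factor (IRF) genes encode transcription factors that share a DNA-binding domain with a conserved set of tryptophans and bind GAAA-containing elements. This account covers 8 of them, Irf1, Irf2, Irf3, Irf4, Irf5, Irf7, Irf8 and Irf9, found by symbol among the 50600 genes of each file. The data are RNA sequencing of mouse T-helper 17 (Th17) cells, the CD4 T cells that secrete interleukin 17, in 4 libraries that form 1 group. Per the labels these are primary cells of the C57BL/6NJ strain, for which a protocol of differentiation from CD4 T cells is linked, and no genetic change is named. The labels number the libraries as biological replicates 1 to 4 and leave sex and age blank, and the file headers carry the mark 72 hr. There is no second group, so the comparisons are between genes of the family within a library and between the libraries. The labels give all 4 libraries 1 donor name and do not state how many animals or cultures lie behind them. The p-values therefore describe only how these 4 samples scatter.

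In T cells, IRF4 is induced by antigen receptor signalling and, bound together with BATF and JUN proteins at composite AP-1 and IRF elements, opens and drives genes of effector programmes, the Th17 programme among them. IRF8 is its close relative and uses the same kind of partner. IRF3, IRF5 and IRF7 are held inactive in the cytoplasm until kinases downstream of nucleic acid sensors or Toll-like receptors phosphorylate them. IRF9 joins STAT proteins, STAT2 among them, in ISGF3, the factor that switches on interferon-stimulated genes, and IRF1 and IRF2 bind the same elements as an activator and, mostly, a repressor.

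The libraries held 9382661 counts (replicate 3) to 34542693 counts (replicate 1). All 10 T-cell and Th17 markers reached 1 TPM (transcript abundance corrected for gene length and scaled to a fixed total) in every library. Markers of other cells that express IRF genes were low. The 5 B-cell markers summed to 0.241 to 0.686 TPM, with no count of Ms4a1, and the 6 dendritic-cell markers to 0.284 to 0.418 TPM, with none of Siglech or Clec9a. The 6 macrophage markers summed to 4.54 to 8.17 TPM, nearly all of it Cd68, with no count of Fcgr1. The 5 markers of natural killer and CD8 T cells summed to 11.4 to 15.6 TPM, nearly all of it Cd8b1, with no count of Ncr1 or Klrb1c. Replicates 1 and 2 had 177 and 193 TPM of Xist and replicates 3 and 4 had 2.15 and 0.598 TPM, while Ddx3y, on the Y chromosome, had 0.165, 0.133, 59.7 and 55.2 TPM in replicates 1 to 4. By these transcripts replicates 1 and 2 are female and replicates 3 and 4 male, so more than 1 animal lies behind the 1 donor name.

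Irf4 carried most of the family's transcripts. Summed over the 8 genes, the libraries held 880, 891, 893 and 916 TPM in replicates 1 to 4, and Irf4 made up 78.0%, 77.5%, 79.5% and 76.9% of it. The other 7 genes together reached 194, 200, 183 and 212 TPM. In bulk RNA such as this, fewer cells with a transcript and less of it per cell cannot be told apart. Irf7 aside, the members (7 of 8) reached 1 TPM in each library, while 47.6% of 21764 protein-coding genes passed that level. All 8 passed the filter on low counts of the test of spread. The order of mean level was Irf4, Irf3, Irf8, Irf5, Irf9, Irf2, Irf1 and Irf7, and the plot of levels shows each library.

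**Figure D1:**
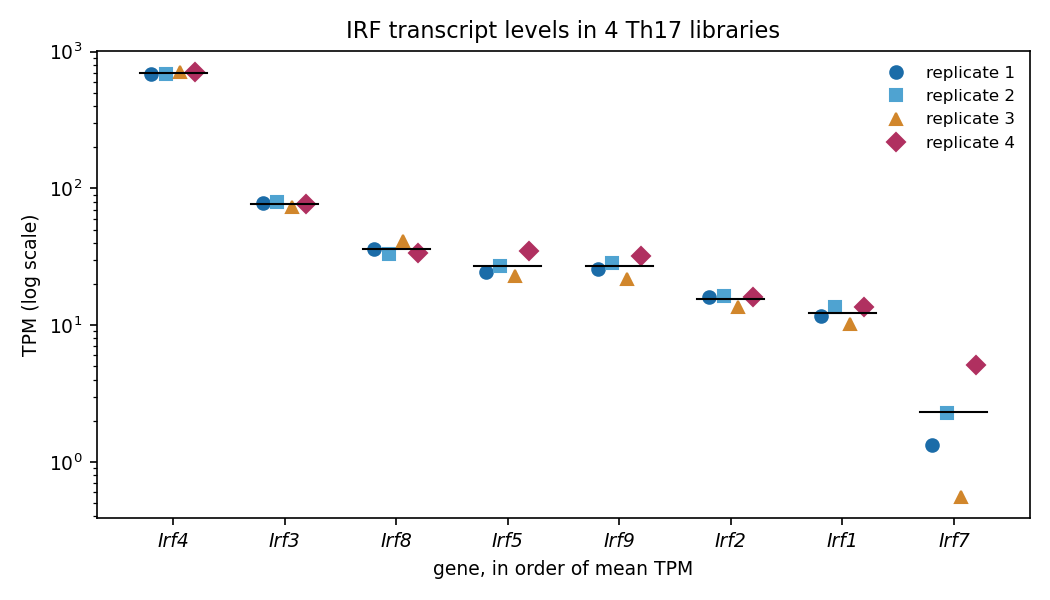
Level of each IRF gene in TPM (log axis), one symbol per library, with a black line at the mean of the 4 libraries. Irf4 stands near 700 TPM in every library with its symbols close together, and Irf7 is the lowest gene and the one whose symbols lie farthest apart.

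Irf4 (ENSMUSG00000021356.9) lies in mm10 on the plus strand of chromosome 13 from 30749226 to 30766927, with 4715 bases of exon in the annotation used for counting. It had 686, 691, 709 and 704 TPM in replicates 1 to 4, from 33947, 23599, 9531 and 29112 counts. Between the highest and the lowest library it differed 1.05-fold on the log2 CPM scale and 1.03-fold in TPM. Log2 CPM are counts scaled to library size, with a prior count of 2. Folds between the highest and lowest library are on this scale throughout, unless TPM is named. The least deep library, replicate 3, had the highest level. The mean was 698 ± 10.8 TPM (SD, n = 4), rank 176 of 21764 protein-coding genes. Irf4 exceeded Irf3, the next gene, 8.67-fold to 9.66-fold within a library. The 243 bases before the gene are shown because this is the promoter of the dominant member; they run from -250 to -8 relative to the RefSeq start site, with the one match to the motifs searched, TATAAA, in capitals:
Irf4 upstream (GRCm38.p6, chr13:30748983-30749225, plus strand): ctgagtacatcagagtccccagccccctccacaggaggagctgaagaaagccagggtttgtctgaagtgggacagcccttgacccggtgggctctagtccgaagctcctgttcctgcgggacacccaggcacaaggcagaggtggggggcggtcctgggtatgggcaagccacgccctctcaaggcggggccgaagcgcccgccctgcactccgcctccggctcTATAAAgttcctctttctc

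Irf8 (ENSMUSG00000041515.9; plus strand of chromosome 8, 120736358 to 120756694) is best known from B cells, macrophages and dendritic cells. It had 36.3, 33.0, 41.5 and 33.7 TPM in replicates 1 to 4, a mean of 36.1 ± 3.86 TPM (SD, n = 4) from 7291 counts in all. Replicate 3 was the highest library for this gene and the other 3 lay close together. Irf4 exceeded Irf8 17.1-fold to 20.9-fold within a library. Beside it, the summed B-cell and dendritic-cell markers given above stayed below 1 TPM in every library, while the macrophage list held 233 counts of Cd68, and the part of such cells in the level of Irf8 was not tested.

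The DNA-binding partners of IRF4 in T cells were abundant and the ETS partner it uses in B cells was near the floor. Junb, an AP-1 subunit that pairs with BATF, had 1280, 1276, 1130 and 1456 TPM. Jund had 558, 562, 476 and 572 TPM, and Jun had 57.4 ± 2.68 TPM (SD, n = 4). Batf had 392, 378, 421 and 365 TPM, highest in replicate 3 as Irf4 was. Irf4 exceeded Batf 1.80 ± 0.106 times, and Junb exceeded Irf4 1.84 ± 0.194 times (SD, n = 4). Spi1, which encodes the ETS factor PU.1, held 1 count over all libraries, Spib 14 and Batf2 2, so that 5 of the 8 partner genes reached 1 TPM throughout and 3 nowhere. Among 6 genes for IRF-binding cofactors and regulators of IRF4, all reached 1 TPM throughout, with a median of 56.3 ± 1.32 TPM (SD, n = 4). Def6, which encodes a protein that binds IRF4 and limits its action, led them at 208 ± 8.06 TPM, and Rock2, whose kinase phosphorylates IRF4 in Th17 cells, had 52.8 ± 2.12 TPM (SD, n = 4). Irf2bp2 and Irf2bpl, for corepressors named after IRF2, had 59.7 ± 3.00 and 64.4 ± 1.53 TPM (SD, n = 4).

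The BATF and IRF4 programme of Th17 cells had a median of 80.2 ± 5.95 TPM (SD, n = 4) and included very abundant cytokine genes. Il17f and Il17a, the cytokine genes that define the lineage, had 11651 ± 878 and 7787 ± 754 TPM (SD, n = 4). Ctla4, an inhibitory receptor gene, had 2801 ± 373 TPM and Il21 597 ± 21.5 TPM (SD, n = 4). In this list 10 of 11 genes passed 1 TPM throughout, and Prdm1, which IRF4 drives in plasma cells, stayed below it at 0.205, 0.124, 0.189 and 0.225 TPM. The median fold between highest and lowest library was 1.29, beside 1.19 over all 12156 genes tested.

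Irf3 (ENSMUSG00000003184.15; plus strand of chromosome 7, 44997648 to 45002848) was the second most abundant member. It had 78.3, 79.7, 73.4 and 76.7 TPM in replicates 1 to 4, a mean of 77.1 ± 2.73 TPM (SD, n = 4). On the log2 CPM scale the libraries were within 1.08-fold of each other, next to Irf4 the narrowest range in the family. Irf3 exceeded Irf8 1.77-fold to 2.42-fold within a library. An 88-base stretch of its exons lies opposite exons of Bcl2l12 on the other strand, which strand-specific counting keeps apart.

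Irf5 (ENSMUSG00000029771.12; plus strand of chromosome 6, 29526625 to 29541871), which acts downstream of MyD88, had 24.4, 27.2, 22.7 and 34.8 TPM in replicates 1 to 4. Replicate 4 stood above the other 3, and its counting interval of 32.5 to 37.1 TPM did not reach theirs. The mean was 27.3 ± 5.32 TPM (SD, n = 4). Counting intervals here are 95% exact Poisson intervals and cover counting error only.

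Irf7 (ENSMUSG00000025498.15; minus strand of chromosome 7, 141262706 to 141266481) encodes the factor that interferon itself induces and that amplifies the response. It was the lowest member and differed most between libraries, with 53, 62, 6 and 170 counts in replicates 1 to 4. These are 1.34 TPM (interval 1.00 to 1.75), 2.27 TPM (1.74 to 2.91), 0.557 TPM (0.205 to 1.21) and 5.14 TPM (4.39 to 5.97). The interval of replicate 4 lay above those of the other 3, replicate 3 was the lowest, and replicate 1 overlapped both replicate 2 and replicate 3. Replicates 3 and 4, at either end for Irf7, were the 2 libraries low in Xist. On the log2 CPM scale (counts scaled to library size, with a prior count of 2) the highest library was 8.13-fold above the lowest. In TPM the ratio was 9.21. The mean was 2.32 ± 2.00 TPM (SD, n = 4). The ratio of Irf3 to Irf7 ran from 14.9 in replicate 4 to 132 in replicate 3. The bases before the gene are shown because Irf7 is the member that varied; they hold no match to the interferon-response, composite, GAS or AP-1 letters described below, and they stop at -58 from the RefSeq start, where the annotation used for counting places an exon:
Irf7 upstream (GRCm38.p6, chr7:141266482-141266674, minus strand): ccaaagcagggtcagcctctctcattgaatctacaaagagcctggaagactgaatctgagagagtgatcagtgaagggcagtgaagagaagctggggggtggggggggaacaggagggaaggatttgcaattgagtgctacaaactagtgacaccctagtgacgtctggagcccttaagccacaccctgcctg

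**Figure D2:**
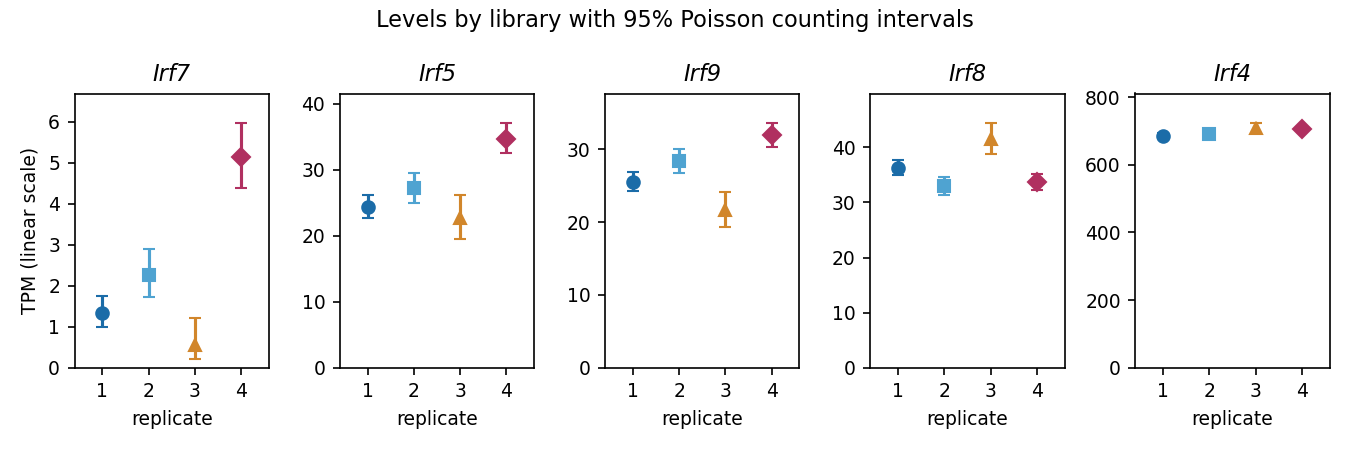
Level in TPM (linear axes from 0) of 5 IRF genes in each library, with 95% exact Poisson intervals from the counts. Irf7 is lowest in replicate 3 (0.557 TPM) and highest in replicate 4 (5.14 TPM), Irf5 and Irf9 are highest in replicate 4, Irf8 is highest in replicate 3, and Irf4 is nearly level.

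Upstream of IRF3, IRF5 and IRF7, 15 of 20 genes for sensors, adaptors and kinases reached 1 TPM in each library. The highest were Tmem173, for the DNA-pathway adaptor STING, at 234, 239, 248 and 213 TPM, and Myd88 at 139, 124, 141 and 119 TPM. Both were lowest in replicate 4, as 32.9% of all genes tested were, and differed only 1.18-fold and 1.20-fold. In this list 11 of the 17 genes tested were highest in replicate 4, the library with the most Irf7, and 5 were lowest there. Traf6 and Irak1, for a ubiquitin ligase and a kinase in the MyD88 pathway, had 84.1 ± 6.34 and 65.8 ± 1.67 TPM (SD, n = 4). Tlr3, Tlr4 and Tlr9 held 1, 25 and 7 counts in all, and Ticam2, an adaptor of TLR4, had 0.711 ± 0.188 TPM (SD, n = 4). Tlr7 was above 1 TPM in replicates 1 and 2 and below it in the others (0.956 ± 0.323 TPM, SD, n = 4). Of the 17 genes tested, 3 differed 2-fold or more between libraries, which is 17.6% beside 5.85% of all genes tested. They were Dhx58, an interferon-induced RNA sensor of the RIG-I class, with 4.66, 4.05, 2.57 and 11.96 TPM (4.45-fold), Ddx58 (2.03-fold) and Tlr7 (2.21-fold), the last 2 named after their values were seen. Dhx58 and Ddx58 shared the highest and the lowest library with Irf7, while Tlr7 was lowest in replicate 4.

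No interferon transcript reached 1 TPM. Of 10 ligand genes, Ifnb1, Ifna1, Ifna2, Ifna4, Ifna5, Ifnk, Ifnl2 and Ifnl3 had no count in any library. Where 0 counts were seen, as many as 3 would still be compatible with counting error. In replicate 3, the least deep, that floor is 1.403 TPM for Ifnb1, so a low level there was not detectable. Ifne had 4 counts, all in replicate 1, and Ifng had 2 counts in all. By contrast, 8 of 9 genes for interferon receptors and their kinases reached 1 TPM in each library. Jak2 and Jak1 led them at 184 ± 7.61 and 137 ± 3.32 TPM, followed by Ifngr1 at 45.6 ± 9.38 TPM and Tyk2 at 43.5 ± 4.45 TPM (SD, n = 4). Ifnlr1, for a chain of the lambda receptor, held 17 counts in all.

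Irf9 (ENSMUSG00000002325.14; plus strand of chromosome 14, 55603571 to 55610030) had 25.5, 28.4, 21.6 and 32.0 TPM in replicates 1 to 4, a mean of 26.9 ± 4.38 TPM (SD, n = 4). Replicate 4 was the highest and replicate 3 the lowest, with intervals of 30.4 to 33.6 and 19.4 to 24.1 TPM that did not overlap. Exons of Irf9 share 123 bases with Rnf31 on the same strand, where reads were not counted, so its level is set slightly low. Stat2, its constitutive partner, had 21.3, 25.3, 19.0 and 35.7 TPM, in the same order of libraries as Irf9. Within a library Irf9 stood at 0.896 to 1.20 times Stat2.

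Genes that ISGF3 drives were low for the most part and had wide ranges between libraries, none of them called by edgeR (12 of 14 tested had an unadjusted p below 0.05, beside 4.90% of all genes, and DESeq2 marked 7, beside 0.847%). The 23 targets were listed with earlier results of these data known, so the shares describe this list only. Of the 23, 9 reached 1 TPM in each library and 8 in none, among them Ifit3, Mx1, Oas2, Rsad2 and Rtp4. Ranges of 2-fold or more were found for 9 of the 14 tested, 64.3% beside the 5.85% of all genes. The median fold was 3.52 beside 1.19, without matching for abundance (median level 1.72 TPM beside 25.2 TPM). In replicate 3, Ifit1, Usp18, Mx2, Xaf1 and Cmpk2, among the 9, had 5, 6, 7, 7 and 8 counts, so their ranges carry counting error. Isg15, Oas3, Ifi27l2a and Trim30a had 17, 65, 69 and 198 counts there. The summed level was 537, 618, 457 and 880 TPM in replicates 1 to 4. Of the 14, 12 (85.7%) had their maximum in replicate 4 and their minimum in replicate 3, an order found in 20.5% of all genes tested. This order was not limited to these targets. It was held by 6 of 8 interferon receptor and kinase genes tested (75%) and 3 of 5 partner genes (60%). Lower shares were seen for sensors, adaptors and kinases (7 of 17, 41.2%), negative regulators (3 of 9, 33.3%), the BATF and IRF4 programme (3 of 10, 30%) and cofactors (0 of 6). Ifi27l2a had 127, 162, 52.3 and 342.5 TPM, Isg15, a ubiquitin-like protein gene, 6.68, 19.0, 7.89 and 32.0 TPM, and Ifit1 1.04, 2.18, 0.660 and 3.09 TPM. The range was not wide for every target. Bst2, for tetherin, was the most abundant at 285, 299, 298 and 289 TPM and differed 1.06-fold. Zbp1 and Eif2ak2, for sensors of Z-form and double-stranded nucleic acid, had 38.4 ± 10.01 and 28.6 ± 6.47 TPM (SD, n = 4).

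**Figure D3:**
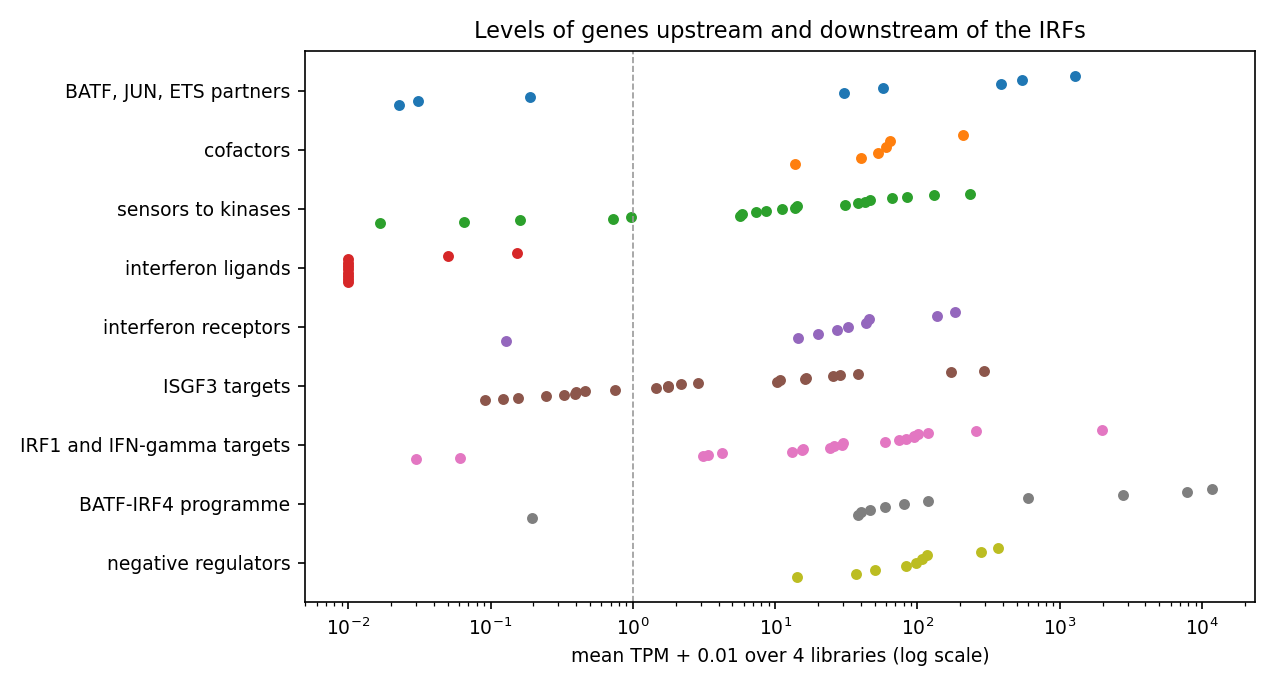
Mean TPM plus 0.01 over the 4 libraries (log axis) of each gene in 9 pathway lists, one point per gene, with a dashed line at 1 TPM. Points at the left edge are genes without a count. All 10 interferon ligands lie left of the line, 8 of 9 receptor and kinase genes lie right of it, and ISGF3 targets lie on both sides.

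Irf1 (ENSMUSG00000018899.16; plus strand of chromosome 11, 53770014 to 53778374) had 11.7, 13.6, 10.1 and 13.5 TPM in replicates 1 to 4, a mean of 12.2 ± 1.62 TPM (SD, n = 4). Irf2 (ENSMUSG00000031627.9; plus strand of chromosome 8, 46739732 to 46847458) had 16.1, 16.3, 13.5 and 16.2 TPM, a mean of 15.5 ± 1.36 TPM (SD, n = 4). Both genes were lowest in replicate 3. The repressor's transcript exceeded the activator's in every library, 1.20-fold to 1.38-fold. Targets of IRF1 and of the interferon-γ response were expressed in most cases, 19 of 21 reaching 1 TPM in each library. The antigen presentation genes B2m, Psmb8, Tap2 and Tapbp led at 1988 ± 170, 256 ± 13.7, 118 ± 9.50 and 100.2 ± 15.6 TPM (SD, n = 4). Ciita, the master regulator of class II genes, and Il15 held 4 counts each. The guanylate-binding protein genes Gbp3, Gbp5 and Gbp7, named after their values were seen, were the 3 of 19 tested with a 2-fold range (15.8%, beside 5.85% of all genes tested), and 12 of the 19 (63.2%, beside 20.5%) had their maximum in replicate 4 and minimum in replicate 3. The number with a 2-fold range was 1 without replicate 3 and 1 without replicate 4.

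All 9 negative regulators of IRF signalling reached 1 TPM in each library, with a median of 96.9 ± 3.48 TPM (SD, n = 4). Ptpn6 and Socs1, whose products restrain cytokine receptor signalling, had 370 ± 15.8 and 277 ± 20.3 TPM. Rbck1 and Otud5, for a ubiquitin ligase that targets IRF3 and a deubiquitinase, had 117 ± 4.98 and 107 ± 6.89 TPM (SD, n = 4). None of the 9 differed 2-fold.

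The order of the members was compared within libraries for all 28 pairs, as differences of log2(TPM + 1). With 4 libraries, a exact permutation test that flips the signs of the differences cannot go below p = 0.125, counting both tails, so no pair could reach 0.05. In 26 of 28 pairs the difference had the same sign in all 4 libraries (exact permutation p = 0.125, adjusted 0.135). Irf4 minus Irf3 was 3.16 ± 0.07, Irf3 minus Irf8 1.08 ± 0.19, Irf9 minus Irf2 0.75 ± 0.14, Irf2 minus Irf1 0.32 ± 0.09 and Irf1 minus Irf7 2.17 ± 0.68 (SD, n = 4). Neighbours whose difference changed sign between libraries were Irf8 and Irf5, 0.41 ± 0.38 with Irf8 higher in 3 of 4 libraries (exact permutation p = 0.25, adjusted 0.259), and Irf5 and Irf9, 0.02 ± 0.09 with Irf5 higher in 2 of 4 (exact permutation p = 0.75). The levels depend on the gene length used. With each member's longest coding transcript in place of all its exons, Irf5 stood below Irf9 and Irf2, and Irf4 came first with 64.7% of the sum. On that scale Irf3 stood at 131, Irf8 at 89.5, Irf9 at 48.9, Irf2 at 45.9, Irf5 at 35.3 and Irf1 at 22.7. The scaling total kept the exon lengths of all genes, so these values are not TPM and compare only within the family.

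Whether any member varied between libraries more than genes of its abundance was tested with edgeR over 12156 genes. None of the 8 was called at an adjusted p of 0.05, beside 1 of all genes (0.00823%), which was Xist. With 1 group the filter asked for a minimum level in every library, so genes nearly absent from some libraries were not tested. At an unadjusted p below 0.05, edgeR marked Irf7 and Irf9, 2 of 8, beside 4.90% of all genes. Irf7 had an adjusted p of 0.622 in edgeR, and its ratio to the abundance trend stood at the 99.2 percentile of all genes. DESeq2 marked Irf7 alone among the members as a dispersion outlier, as it did 0.847% of all genes. Across the 10 pathway lists edgeR called none of the 90 genes tested, 31 had an unadjusted p below 0.05, and DESeq2 marked 12. In edgeR without the filter on low counts, Irf7 was called at an adjusted p of 0.0167, beside 126 of 21299 genes. Its range was 3.70-fold without replicate 3 and 3.66-fold without replicate 4. Irf7 was also the only member with a 2-fold range, 1 of 8 (12.5%) beside 5.85%. Irf5, Irf9, Irf1, Irf8, Irf2, Irf3 and Irf4 followed at 1.499-fold, 1.45-fold, 1.32-fold, 1.27-fold, 1.19-fold, 1.08-fold and 1.05-fold.

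**Figure D4:**
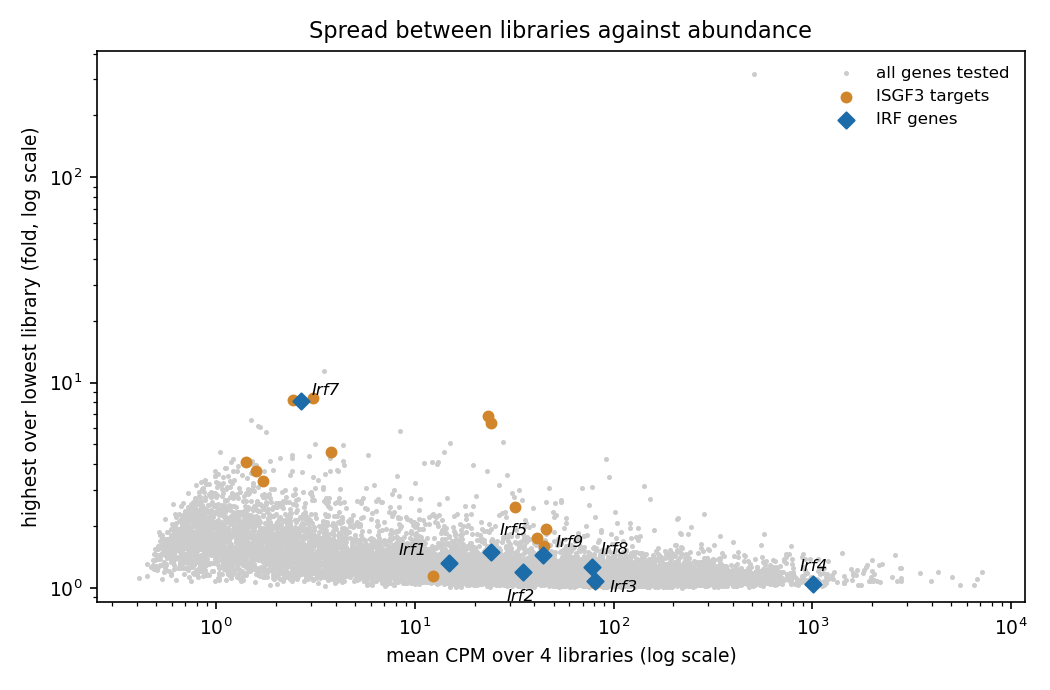
Fold between the highest and lowest library against mean CPM (both log axes) for all 12156 genes tested (grey), ISGF3 targets (orange) and IRF genes (blue diamonds, named). Irf7 lies at 8.13-fold among several ISGF3 targets, the other 7 IRF genes lie at 1.499-fold or less, and the single grey point near the top is Xist.

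By library, 6 of the 8 members had their lowest level in replicate 3, where 34.2% of all genes tested had theirs. Irf4 was lowest in replicate 1 and Irf8 in replicate 2 (16% and 16.9% of all genes), and none was in replicate 4 (32.9%). The highest level was in replicate 2 for 3 members (Irf1, Irf2 and Irf3, beside 18% of all genes), in replicate 3 for Irf4 and Irf8 (33.9%), in replicate 4 for Irf5, Irf7 and Irf9 (33.2%), and in replicate 1 for none (14.9%). Irf5, Irf7 and Irf9 (37.5% of members) joined a maximum in replicate 4 to a minimum in replicate 3, an order held by 20.5% of all genes. The members' profiles were compared by the root mean square difference of log2 CPM after each gene's mean was removed, over 4 libraries. The most alike were Irf3 and Irf4 (0.06), Irf1 and Irf9 (0.07) and Irf5 and Irf9 (0.08). Irf7 was 0.89 to 1.23 from every other member, nearest to Irf5. Replicate 3 is also the least deep library, and the part of depth in these orders was not tested.

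The 5 genes most like Irf7 by the same measure, among 11068 protein-coding genes, were Xaf1 (0.05), Oas3 (0.09), Ccn4 (0.18), Ifi27l2a (0.19) and Usp18 (0.20). All but Ccn4, which encodes a secreted matrix protein, are in the list of ISGF3 targets. That list was chosen with earlier results of these data known, so membership is not independent support. Xaf1, for an antagonist of an apoptosis inhibitor, had 1.20, 1.97, 0.524 and 4.94 TPM (8.44-fold). Oas3, for an enzyme that makes 2-5A from ATP on double-stranded RNA, had 6.70, 10.7, 3.23 and 22.8 TPM (6.85-fold). Usp18, for the protease that removes ISG15 and restrains the receptor, had 1.43, 2.23, 0.755 and 7.03 TPM (8.22-fold). In each of the 5, replicate 4 was the highest and replicate 3 the lowest, and edgeR called none (adjusted p 0.289 to 0.875). In replicate 3 Xaf1, Ccn4 and Usp18 had 7, 5 and 6 counts, beside 6 for Irf7, so their distances carry counting error. Oas3 and Ifi27l2a had 65 and 69 counts there. With 4 points per gene from the same libraries, these values are a description.

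**Figure D5:**
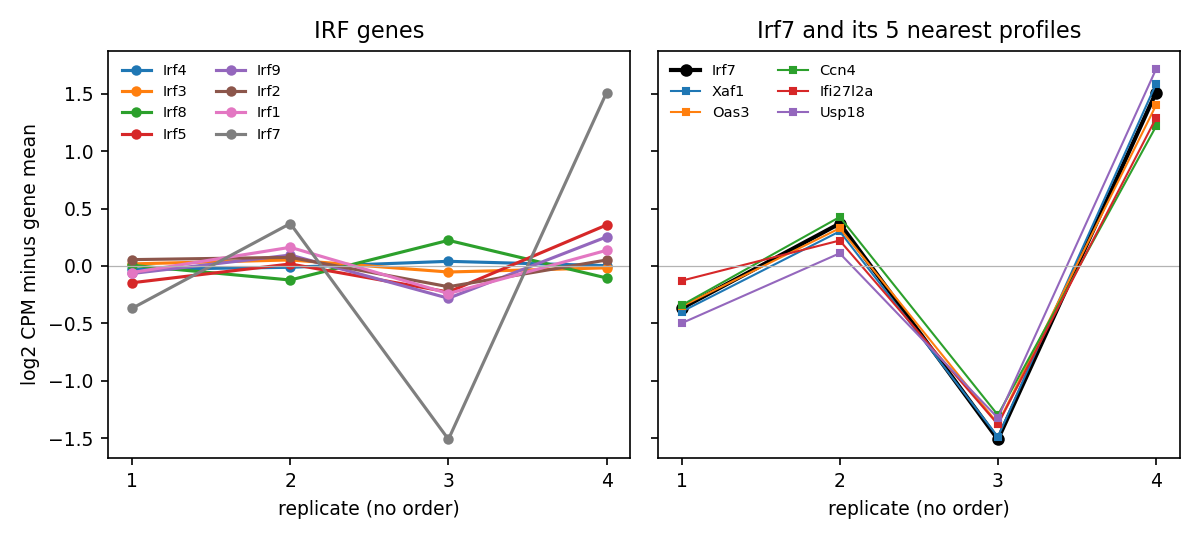
Log2 CPM minus the gene's mean in each library, for the 8 IRF genes (left) and for Irf7 with its 5 nearest profiles (right). Lines only join the points of 1 gene, since the replicates have no order. Irf7 lies far from the other IRF genes in replicates 3 and 4, and close to Xaf1 and Oas3.

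Promoter windows of the members, 250 bases before to 50 after each RefSeq start site (GRCm38.p6, 11 windows for the 8 genes), were searched on both strands for 5 sets of letters. These were the core of the interferon-stimulated response element, the composite element of ETS and IRF factors, the GAS element TTCNNNGAA that STAT dimers bind, the AP-1 element TGANTCA and TATAAA. The composite can overlap the core. GAS matches were found for Irf1, Irf2 and Irf8, 3 of 8 genes, beside 9.55% of 27025 genes in the table. The core and the composite were each found for Irf2 alone (1 of 8, 12.5%), beside 3.99% and 3.16%, and AP-1 for no member, beside 8.97%. TATAAA, added after the windows were read, was found for Irf4, Irf7 and Irf8, beside 15.7%. Among ISGF3 targets 9 of the 15 genes in the table had the core, and among IRF1 and interferon-γ targets 7 of 15. The stretches with matches are printed because they show which members carry the letters that STAT dimers and the IRFs themselves bind, with matches in capitals, and Oas3 is added as a gene with a profile like that of Irf7 and a core in its window. Of the 5 nearest profiles only Xaf1 and Oas3 had a window in the table, and that of Xaf1 had no core:
Irf1 (chr11:53769912-53769944, plus strand, -102 to -70, GAS): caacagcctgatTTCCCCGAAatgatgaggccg
Irf2 (chr8:46739495-46739541, plus strand, -250 to -204, composite overlapping core, then GAS): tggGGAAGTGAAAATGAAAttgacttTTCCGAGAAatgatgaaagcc
Irf8 (chr8:120736175-120736225, plus strand, -183 to -133, 2 GAS): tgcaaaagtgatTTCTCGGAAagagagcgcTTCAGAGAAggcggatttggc
Oas3 (chr5:120777713-120777746, minus strand, -87 to -54, core): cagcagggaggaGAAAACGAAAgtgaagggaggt
A match here is a run of letters and not a measured binding site, and the lack of one for Irf7 concerns this window only.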

How the data were processed

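The authors deposited raw counts, one whole number of read pairs for each gene. Per the file headers they were made with featureCounts 1.4.6-p4 on GENCODE mouse release 13 exons (mm10), read pairs counted once, strand option 2. Reads with several places or genes were not counted. The aligner version is not stated in the labels or headers. Per the labels the assay is total RNA sequencing, though the linked protocol is named for polyadenylated RNA.

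From these counts and the exon lengths TPM were calculated, and symbols came from GENCODE release 21. Spread was tested with edgeR 4.0.16 (intercept alone, TMM, filterByExpr, prior degrees of freedom 4.77, quasi-dispersion over trend, upper-tail F, Benjamini-Hochberg over 12156 genes), with DESeq2 1.42.0 as an alternative. In simulated data, some genes with a mean count above 100 were changed in 1 of 4 libraries. Irf7, with 291 counts over the 4 libraries, lies below that mean, so the simulation does not cover it. There edgeR found 63% of the 2-fold changes and 100% of the 4-fold ones (11997 genes tested). That simulation gave each gene the dispersion of the trend, without scatter of its own, so these shares need not hold for the real genes. In the real data Oas3, with a range of 6.85-fold, was not called (edgeR adjusted p 0.289). Pairs used scipy 1.17.1.

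The members and lists were chosen with earlier results of these data known. The text names all members, the 4 highest genes of a list, those below 1 TPM, those with 4-fold ranges, the 5 nearest to Irf7 and markers of other cells. Any other gene was picked with its values in view. Protein sequences were not used here, and some genes are not reported here.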

Additional observations from a re-analysis of the deposited data

Results flagged for a closer look

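Among 87 named genes of the family, its lists and the cell markers, 10 had 1 library set apart from the other 3. The measure was Dixon's 95% criterion for the gap over the range, by which chance flags about 1 in 20 groups of 4. That rate need not hold for genes with few counts or for genes named for their range. The share over all genes was not determined. Of the 10, 1 was a family member. Irf2 was lowest in replicate 3 at 13.5 TPM, where replicates 1, 2 and 4 had 16.1, 16.3 and 16.2 TPM. Jund, Irf2bp2 and Rbck1 were also lowest in replicate 3, at 475.8, 55.3 and 109.5 TPM. Replicate 3 is the least deep library, and the part of depth was not tested. The other 6 rest on few counts. Ifne, Flt3 and Zbtb46 were highest in replicate 1 (0.574, 0.154 and 0.101 TPM), Adgre1 in replicate 3 (0.216 TPM), and Rsad2 and Lyz2 in replicate 4 (0.185 and 0.260 TPM).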

How the results depend on the processing

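No paired analysis was possible because the 4 libraries form 1 group. Of all genes, 126 of 21299 were called variable without a filter and 5 of 10643 with a mean count of at least 50. DESeq2 marked 103 of 12156 as dispersion outliers, and edgeR called 1 to 20 with 1 library left out (20 without replicate 4). Of the members, 1 (Irf7) was called without a filter and 1 by DESeq2. Genes with a 2-fold range, with 1 library left out, numbered 1 to 3 for IRF1 and interferon-γ targets (1 without replicate 3 or without replicate 4), 0 to 3 for sensors, adaptors and kinases (0 without replicate 4), 7 to 9 for ISGF3 targets, and 263 to 602 for all genes (263 without replicate 3, 330 without replicate 4). Irf4's share was 64.7% with the longest coding transcript as length, an alternative chosen after seeing the data. Irf5 minus Irf9 turned to -0.85 without length correction, -0.46 with the longest transcript, -0.0016 without replicate 3 and -0.018 without replicate 4 (0.042 without replicate 1). Irf5 minus Irf2 turned to -0.53 and -0.38 under the first 2 of these. Irf3 minus Irf8 was 0.06 without length correction and Irf9 minus Irf2 was 0.08 with the longest transcript, neither with 1 sign in all 4 libraries (exact permutation p = 0.5). The cause was not tested. Other scalings moved a library by at most 0.02 on the log2 scale. Depth limits Irf7 most, with 6 counts in replicate 3.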
